A study of Mus musculus with 16 samples.

Results

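Immediate early genes are switched on within minutes of a stimulus, and their transcripts are short-lived. Rows of the count table with the symbols Fos, Fosb, Jun, Junb, Egr1, Ier2, Ier3, Atf3, Nr4a1 and Dusp1 were taken, and all 10 were found among the 24964 gene symbols. All 10 also passed the filter on low counts that left 15385 genes for testing. The data were RNA sequencing counts from 16 mouse stomach libraries, 4 in each of 4 groups. Groups named WT came from C57BL/6 mice, and groups named TTP came from congenic C57BL/6 mice of genotype TTPΔARE. In this allele the gene for tristetraprolin (TTP, gene symbol Zfp36) has lost the AU-rich element from its own mRNA. Groups named A carried the label of gastric inflammation brought on by adrenalectomy, the removal of the adrenal glands. For groups named S, the treatment label gives spasmolytic polypeptide-expressing metaplasia, a mucous cell state of the injured corpus. The labels give neither what S abbreviates nor whether any surgery was done, and S is kept as a name for the group. All mice were female and aged 8 weeks, and RNA was isolated from corpus tissue of the lesser curvature taken as a 4 mm biopsy. The labels do not say whether replicates were separate mice, so p-values measure the spread between these libraries, which may be technical.

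In most cells, growth factors, cytokines, injury and stress raise immediate early transcription through MAP kinases acting on serum response factor and its partners, and through CREB. The FOS and JUN proteins pair into the transcription factor AP-1, EGR1 and NR4A1 are DNA-binding regulators, and DUSP1 is a phosphatase that shuts the MAP kinases off. TTP binds AU-rich elements in 3′ untranslated regions (UTRs) and recruits deadenylases, so that the bound transcript is degraded.

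The core of such an element is the pentamer ATTTA in DNA letters, and TTATTTATT is the nonamer that TTP is known to prefer. Both were counted on the sense strand of the 3′ UTR of the longest coding transcript of each gene, in GENCODE release M21 on build GRCm38. At least 1 ATTTA was present in 9 of the 10 genes, beside 64.7% of 21020 coding genes. The nonamer was present in 2 of the 10, Fos and Dusp1, beside 7.57% of coding genes. Ier3 had 5 pentamers, Fos, Jun and Dusp1 had 4 each, Atf3 and Nr4a1 had 3 each, Junb and Egr1 had 2 each, and Fosb had 1. None was found in Ier2. Windows of 30 bases are shown for the genes with a nonamer and for the genes, Ier3 and Atf3, whose levels differed between groups, with pentamers and nonamers in capitals.
Fos: gtgttttcaATTTATTTATTaagatggatt
Dusp1: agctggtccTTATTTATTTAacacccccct
Ier3: taattaatATTTAtgtATTTAtgtatatcc
Atf3: accaattccaggATTTAggccttatcatcc
The Fos window lies at chr12:85477102-85477131 on the plus strand and the Dusp1 window at chr17:26506157-26506186 on the minus strand. The Ier3 window lies at chr17:35822485-35822514 on the plus strand and the Atf3 window at chr1:191171241-191171270 on the minus strand. A match of these letters is a description of the sequence and not a binding site.

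Promoter windows from RefSeq on GRCm38.p6, 250 bases before to 50 bases after the start, were found for 8 of the 10 genes, Egr1 and Ier2 being the others. The cyclic AMP response element TGACGTCA, searched on both strands, was present in 1 of these 8, Dusp1, beside 1.79% of 32851 promoters. The CArG box, to which serum response factor binds, was in none of the 8, beside 1.63% of promoters. The AP-1 motif TGAGTCA, read on the other strand as TGACTCA, was also in none, beside 5.2% of promoters. These letters may lie outside such short windows.

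Libraries held 17453930 to 25849472 counts. Levels are given as CPM, a gene's counts relative to a library's total, scaled by TMM (the trimmed mean of M-values). Summed parietal cell markers stood at 15900 to 24600 CPM and chief cell markers at 47200 to 150000 CPM, so the defining genes of the corpus were present in every library. Zfp36 itself was at 62.0 ± 4.73 CPM (SD, n = 4) in WT-S libraries and 72.0 ± 11.9 in WT-A, against 122 ± 6.11 for TTP-S and 123 ± 9.54 for TTP-A. The genotypes did not overlap, with a log2 difference of 0.98 (SE 0.10) in S and 0.77 (SE 0.10) in A, and adjusted p of 0.000273 and 0.0013. Counts over the gene do not check the deletion itself. In WT-A replicates 3 and 4, each gene's deviation from its median over libraries followed transcript GC content (Spearman rho 0.716 and 0.738 across 11493 genes, which are not independent), against -0.302 to 0.164 in the other 14 libraries. Every fit was therefore repeated over the other 14 libraries, and those values are given where a call was lost or the difference moved. The Zfp36 difference in A was 0.95 there.

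Compared per transcript length, the WT-S libraries held most Junb, at 122 ± 22.5 TPM (counts divided by annotated exon length and scaled to a fixed total; SD, n = 4), then Jun at 79.2 ± 13.9. Next came Ier2 at 56.3 ± 6.23, Fos at 51.5 ± 13.4 and Ier3 at 35.8 ± 6.66. Below these were Atf3 at 24.7 ± 6.80, Egr1 at 23.7 ± 5.58, Dusp1 at 22.2 ± 2.98, Nr4a1 at 14.3 ± 2.54 and Fosb at 2.04 ± 0.779. The mean ± SD ranges of neighbours in this order overlapped from Ier2 through Dusp1, and were apart between Junb and Jun, Jun and Ier2, Dusp1 and Nr4a1, and Nr4a1 and Fosb. All 10 transcripts were thus measurable in WT-S, with Fosb far below the rest.

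Genes with an adjusted p under 0.05 in the edgeR quasi-likelihood test over all genes are referred to as called. Between WT-A and WT-S, 1 of the 10 was called, Atf3, which was higher, against a background of 18.5% of all genes tested. Between TTP-A and TTP-S, 1 was called, again Atf3 and again higher, with a background of 2.57%. Between TTP-S and WT-S none of the 10 was called, with a background of 0.0325%. There 2 of the 10, Ier3 and Atf3, had an unadjusted p under 0.05, and DESeq2 called 1, Ier3. Between TTP-A and WT-A, 1 was called, Ier3, which was lower, with a background of 5.15%. For the interaction, which asks whether the A against S difference changes with genotype, none was called, with a background of 0.0455%. Its lowest adjusted p among the 10 was 0.30, for Jun, the 1 gene with an unadjusted p under 0.05, and DESeq2 also called none.

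**Figure D1:**
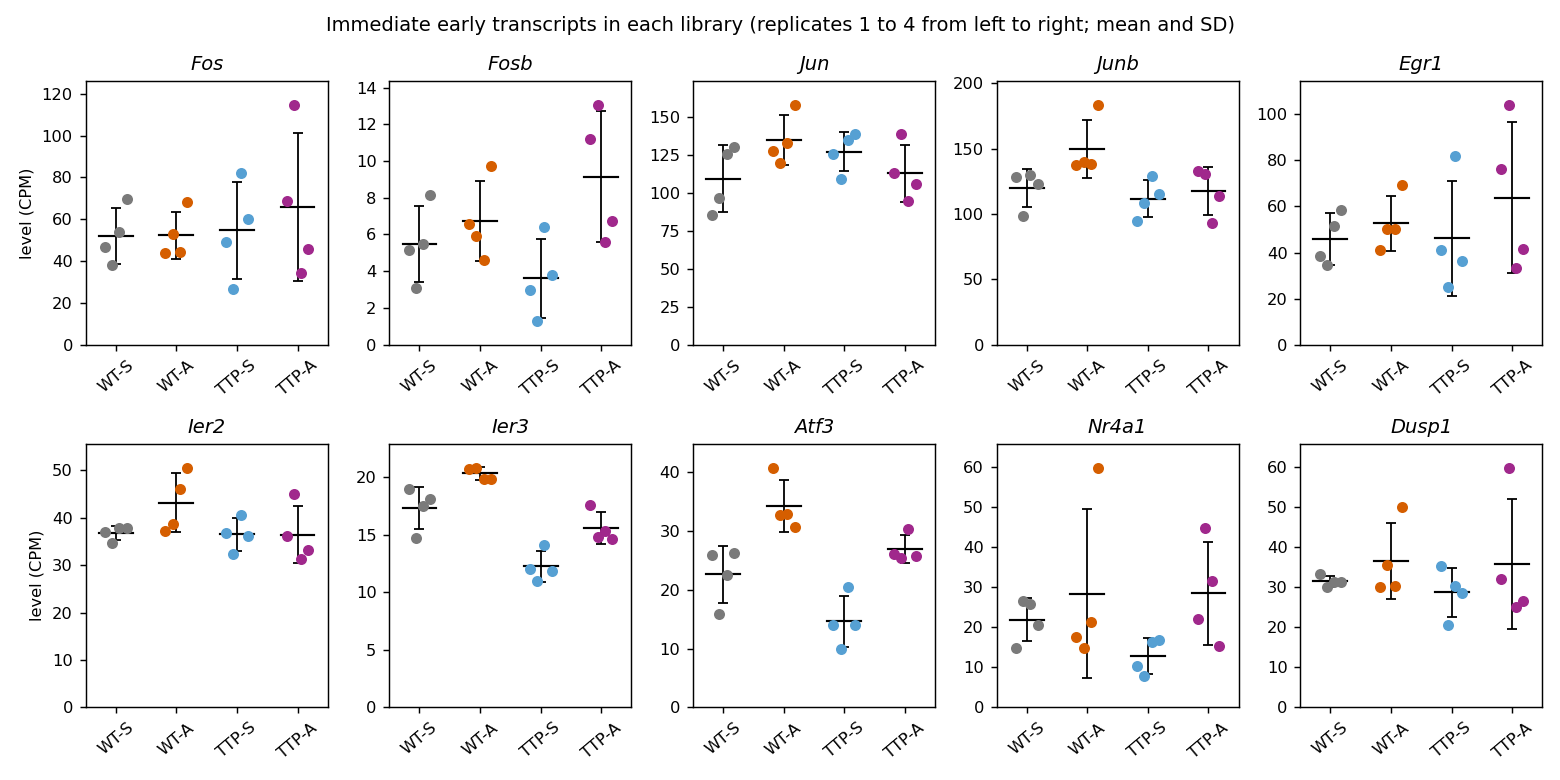
Level of each immediate early transcript in every library, in CPM (vertical axis, starting at 0) by group (horizontal axis); points are replicates 1 to 4 from left to right, and bars are mean and SD over 4 libraries. Atf3 is higher in A than in S in both genotypes with no overlap, Ier3 is lower in TTP than in WT with no overlap within each treatment, and Fos, Fosb, Egr1, Nr4a1 and Dusp1 spread widely within groups.

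Atf3 encodes a basic leucine zipper factor that is induced by many kinds of cell stress and injury, and it was higher in A than in S in both genotypes. WT-S libraries 1 to 4 held 25.97, 15.9, 22.5 and 26.2 CPM, and WT-A libraries held 40.8, 32.7, 32.9 and 30.7 CPM. Every WT-A library was above every WT-S library. The log2 difference was 0.60 (SE 0.18), a fold of 1.52 with a 95% interval of 1.16 to 1.99, with an adjusted p of 0.0346. TTP-S libraries held 14.1, 9.88, 20.5 and 14.02 CPM, and TTP-A libraries held 26.1, 25.4, 30.4 and 25.8 CPM. Here too the groups were apart, with a log2 difference of 0.88 (SE 0.19), a fold of 1.85 (95% interval 1.40 to 2.44) and an adjusted p of 0.0242. These comparisons share no library. An exact two-sided permutation test gave p = 0.0286 for each, the smallest that 4 against 4 libraries allow. The rise was not shown to differ between genotypes, with an interaction of 0.28 (SE 0.26) and an adjusted p of 0.60.

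The Atf3 calls depended on single libraries, while the direction held in every fit. Without WT-A replicates 3 and 4 the WT difference was 0.70 with an adjusted p of 0.0849, and the TTP difference was 0.89 with 0.0319. Leaving out 1 library at a time, the WT call was lost without WT-A 1, WT-A 3, WT-S 2 or WT-S 3, with adjusted p of 0.0577, 0.07, 0.101 and 0.0712. The TTP call was lost without TTP-A 1, 3 or 4 or TTP-S 1, 2 or 4, with adjusted p from 0.0599 to 0.0885. Differences stayed between 0.46 and 0.68 in WT and between 0.74 and 1.09 in TTP. Fitting only WT-A and WT-S gave an adjusted p of 0.0697.

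Between genotypes Atf3 was not called. In S the mean was 22.6 ± 4.83 CPM in WT and 14.6 ± 4.39 in TTP, a log2 difference of -0.63 (SE 0.19) with an adjusted p of 0.379. The groups overlapped through WT-S 2 and TTP-S 3. In A the means were 34.3 ± 4.45 and 26.9 ± 2.34 CPM, a difference of -0.35 (SE 0.18) with an adjusted p of 0.229, and the groups did not overlap, the lowest WT-A library at 30.7 CPM lying just above the highest TTP-A library at 30.4 CPM. Over 14 libraries that difference was -0.45 (adjusted p 0.342).

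Markers of other cells moved with Atf3. The 6 leukocyte markers together stood at 28.1 to 34.4 CPM in WT-S and 35.3 to 54.9 in WT-A, and at 28.8 to 36.3 CPM in TTP-S and 39.8 to 56.1 in TTP-A, with none of them at 0 throughout a group. Only 3 of the 6 passed the filter on low counts, and 1 was called higher in A in each genotype. The 6 smooth muscle markers stood at 6580 to 7510 CPM in WT-S and 7820 to 9480 in WT-A, but overlapped in TTP, at 5750 to 8110 in S and 6290 to 7530 in A. The 7 squamous forestomach markers spanned 1.27 to 113 CPM in WT-S and 32.4 to 630 in WT-A, and 21 to 231 in TTP-S and 2.02 to 142 in TTP-A. The 4 surface mucous markers were lower in A without overlap, at 52700 to 60600 CPM in WT-S and 36400 to 51600 in WT-A, and at 55800 to 60100 in TTP-S and 29800 to 52900 in TTP-A. In TTP 3 further sums did not overlap. From TTP-S to TTP-A these were 799 to 1070 and 1230 to 3760 CPM for the 2 mucous neck markers, 181 to 202 and 216 to 230 for the 3 endothelial markers, and 89.5 to 164 and 47.7 to 83.4 for the 5 adipocyte markers. Of the 5 parietal markers, 3 were called lower in WT-A than in WT-S. The 4 chief cell markers had a median sum of 125000 CPM in WT-S and 58900 in WT-A, with ranges that overlapped, and 2 of them were called lower and 1 higher. The part of these cells in the Atf3 difference was not tested. In bulk tissue, more cells of a type and more RNA per cell cannot be told apart.

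Ier3 encodes a stress-inducible regulator of apoptosis, and its TTP libraries lay below all WT libraries under both treatments, a difference that was called within A and not within S. In S, WT libraries 1 to 4 held 19.0, 14.7, 17.5 and 18.1 CPM, and TTP libraries held 12.03, 10.95, 14.1 and 11.9 CPM. All 4 TTP-S libraries were below all 4 WT-S libraries. The log2 difference was -0.50 (SE 0.09), a fold of 0.707 (95% interval 0.617 to 0.811), with an adjusted p of 0.0748 and an exact permutation p of 0.0286. In A, WT libraries held 20.7, 20.8, 19.9 and 19.8 CPM, and TTP libraries held 17.6, 14.8, 15.3 and 14.6 CPM. Again no TTP library reached the lowest WT library. The difference was -0.38 (SE 0.09), a fold of 0.767 (95% interval 0.671 to 0.877), with an adjusted p of 0.0296 and the same exact permutation p. The S and A genotype comparisons share no library. In the comparison within A, smooth muscle markers stood at 7820 to 9480 CPM in WT and 6290 to 7530 in TTP, with 4 of 6 called lower. The 4 markers of enteric neurons and glia stood at 10 to 11.6 CPM in WT and 12 to 14 in TTP. The median sum of the chief cell markers was 58900 CPM in WT-A and 113000 in TTP-A, with 2 of 4 called higher in TTP-A, and 1 parietal and 1 endothelial marker were also called higher. Within S no marker sum separated the genotypes. The part of these cells in the Ier3 difference was not tested.

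For Ier3 the size of the genotype difference was steady and its call was not. In S it ranged from -0.57 to -0.45 on leaving out 1 library, and it was called without WT-S 2 (adjusted p 0.0208), without WT-A replicates 3 and 4 (0.0254) and by DESeq2 (0.000991). In A it ranged from -0.45 to -0.35. That call was lost without TTP-A 2, 3 or 4 or WT-A 3, with adjusted p of 0.0745, 0.092, 0.0787 and 0.08. It was also lost without WT-A replicates 3 and 4 together, at -0.41 with 0.057, and on fitting only the groups compared, with 0.0971.

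Ier3 values in A also lay above those in S without overlap in each genotype, at 17.3 ± 1.84 CPM in WT-S and 20.3 ± 0.531 in WT-A, and at 12.2 ± 1.35 in TTP-S and 15.6 ± 1.37 in TTP-A. These log2 differences were 0.23 (SE 0.09, adjusted p 0.0831) and 0.35 (SE 0.09, adjusted p 0.0571), so neither was called. Over 14 libraries the WT difference was 0.26 (adjusted p 0.132). In TTP the difference was called without TTP-A 2 (0.0434), without TTP-S 3 (0.0441), without WT-A replicates 3 and 4 (0.0382), on fitting only TTP-A and TTP-S (0.0373) and by DESeq2 (0.0194). The interaction was 0.12 (SE 0.13, adjusted p 0.67), with a 95% interval on the fold of 0.896 to 1.31. Ier3 was the steadiest of the 10 genes, with a within-group SD of 0.127 on the log2 scale.

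**Figure D2:**
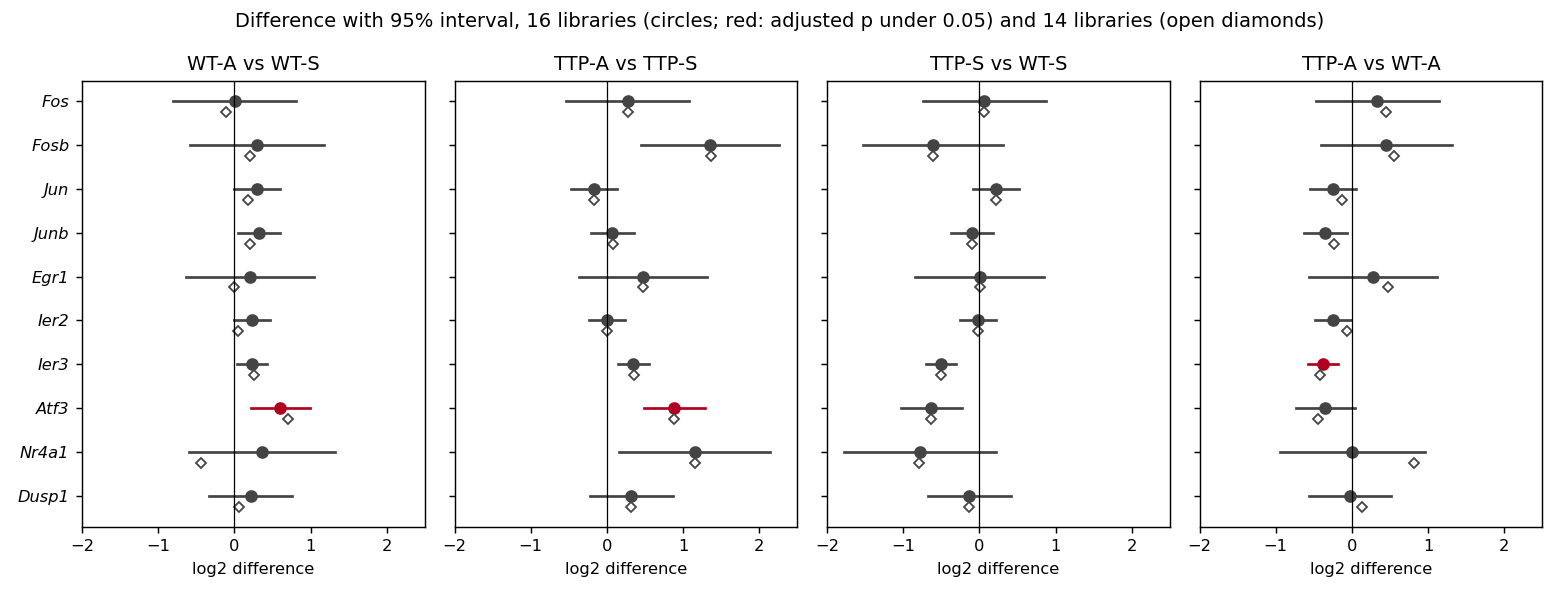
Log2 difference of each immediate early transcript in the 4 pairwise comparisons (horizontal axis), with its 95% interval over 16 libraries as a circle and line, red where the adjusted p is under 0.05, and the value over 14 libraries, without WT-A replicates 3 and 4, as an open diamond. The red points are Atf3 for A against S in both genotypes and Ier3 for TTP-A against WT-A, and the intervals of Fos, Fosb, Egr1 and Nr4a1 are the widest.

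Fos, Fosb and Egr1 varied widely between libraries of the same group. Fos, the founding member of its family and a partner of JUN in AP-1, was at 46.9, 37.9, 54.1 and 69.6 CPM in WT-S and at 43.7, 52.8, 44.5 and 68.1 CPM in WT-A. In TTP-S it was at 49.3, 26.8, 82.2 and 60.2 CPM, and in TTP-A at 68.7, 115, 34.5 and 45.8 CPM. The TTP libraries with the lowest and highest Fos, TTP-S 2 and TTP-A 2, enclosed all 16 values, and all 4 groups overlapped. The adjusted p was 0.58 or more in the 4 comparisons. The 95% interval for TTP-A against WT-A ran from 0.722-fold to 2.20-fold, that for TTP-S against WT-S from 0.598-fold to 1.83-fold and that for WT-A against WT-S from 0.574-fold to 1.76-fold. With this spread the intervals were wide and reached to both sides of no change.

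Egr1, a zinc finger regulator, followed the same libraries. Its WT-S values were 38.5, 34.7, 51.5 and 58.6 CPM and its WT-A values 41.2, 50.3, 50.1 and 69.5 CPM. Its TTP-S values were 41.0, 24.99, 82.1 and 36.3 CPM and its TTP-A values 76.4, 104, 33.2 and 41.6 CPM. TTP-S 3 stood far above the rest of its group, TTP-A 1 and 2 stood above TTP-A 3 and 4, and the largest difference, TTP-A against TTP-S, was 0.47 (SE 0.39, adjusted p 0.66). Without TTP-A 2 that difference was 0.13, and without TTP-S 3 it was 0.90.

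Fosb, a close relative of Fos, was the scarcest of the 10. It stood at 5.15, 3.10, 5.50 and 8.14 CPM in WT-S and 6.57, 5.93, 4.603 and 9.74 CPM in WT-A. TTP-S libraries held 2.96, 1.28, 6.42 and 3.79 CPM, and TTP-A libraries held 11.2, 13.1, 5.57 and 6.76 CPM. TTP-S held the lowest library and TTP-A the highest, and these groups overlapped only in that TTP-S 3 lay above TTP-A 3. The TTP-A against TTP-S difference, 1.36 (SE 0.42), was the largest of any of the 10 genes in any pairwise comparison. It was not called by edgeR, with an adjusted p of 0.105, and was called by DESeq2, with 0.0151. On leaving out 1 library it ranged from 1.07 without TTP-S 2 to 1.78 without TTP-S 3. The matching WT difference was 0.30 (SE 0.41), and the interaction was 1.06 (SE 0.59, adjusted p 0.40).

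Jun and Junb, the JUN partners, and Ier2, a nuclear regulator of transcription, varied less. Junb was at 128, 98.7, 130 and 123 CPM in WT-S and at 137, 140, 138 and 183 CPM in WT-A. Its WT-A libraries were all above its WT-S libraries, and the difference of 0.32 (SE 0.13) had an adjusted p of 0.0922. In TTP-A it was at 133, 131, 92.9 and 113 CPM, below every WT-A library, with a difference of -0.35 (SE 0.13, adjusted p 0.111). Without WT-A replicates 3 and 4 these differences were 0.21 and -0.24. The TTP-S values of 94.3 to 129 CPM overlapped both WT-S and TTP-A.

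Jun had a mean of 110 ± 22.0 CPM in WT-S and 135 ± 16.4 in WT-A, against 127 ± 13.1 for TTP-S and 113 ± 18.8 for TTP-A. Its A against S difference was 0.30 (SE 0.14, adjusted p 0.14) in WT, or 0.18 over 14 libraries, and in TTP it was -0.17 (SE 0.14, adjusted p 0.66). The difference between these, the interaction of -0.47 (SE 0.20), was not called, and without WT-A replicates 3 and 4 it was -0.35. Ier2 had means of 36.8 ± 1.48, 43.1 ± 6.23, 36.4 ± 3.39 and 36.4 ± 6.03 CPM, in the order used for Jun. Its highest WT-A values, 46.0 and 50.5 CPM, were in replicates 3 and 4, and the WT-A against WT-S difference of 0.23 was 0.04 without them.

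Nr4a1 encodes an orphan nuclear receptor. Its levels were 14.9, 26.4, 25.8 and 20.6 CPM in WT-S and 17.5, 14.9, 21.4 and 59.8 CPM in WT-A. For TTP-S they were 10.4, 7.86, 16.3 and 16.8 CPM, and for TTP-A 22.0, 44.8, 31.4 and 15.4 CPM. A single library, WT-A 4, stood far above the other WT-A libraries. Between TTP-A and TTP-S the difference was 1.15 (SE 0.46), with an adjusted p of 0.228, and 3 of the 4 TTP-A libraries were above all TTP-S libraries. Between TTP-S and WT-S it was -0.78 (SE 0.46, adjusted p 0.79). Leaving out 1 library kept the first between 0.84 and 1.36 and the second between -0.94 and -0.61. The WT-A against WT-S difference of 0.36 became -0.30 without WT-A 4 and -0.44 without WT-A replicates 3 and 4.

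Dusp1 stood apart in function as the feedback phosphatase of the group, and it is also induced by glucocorticoids. It was at 33.3, 29.98, 31.3 and 31.4 CPM in WT-S and at 29.95, 35.7, 30.2 and 50.1 CPM in WT-A. TTP-S libraries held 35.2, 20.6, 30.4 and 28.7 CPM, and TTP-A libraries held 32.1, 59.9, 25.1 and 26.6 CPM. All groups overlapped, and single high libraries, WT-A 4 and TTP-A 2, carried the larger means. The A against S difference was 0.21 (SE 0.25, adjusted p 0.57) in WT and 0.32 (SE 0.25, adjusted p 0.63) in TTP, and without those libraries it was 0.02 and -0.04.

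The adrenal glands are the main source of corticosterone. Of a list of 12 other glucocorticoid-induced genes, 7 fell and 2 rose between WT-A and WT-S, with 5 and none over 14 libraries, and 7 fell and none rose between TTP-A and TTP-S. The backgrounds are 18.5% of all genes tested in WT, 10% over 14 libraries, and 2.57% in TTP. The 2 that rose, named after their values were seen, were the metallothioneins Mt1 and Mt2, at 0.68 and 0.77 (adjusted p 0.025 and 0.0236). Each call was lost in 3 of 8 fits that left out 1 library, namely those of WT-S 2, WT-S 4 and WT-A 3. Over 14 libraries they were at 0.82 and 0.82 (adjusted p 0.0567 and 0.1). Per1, a clock gene with a glucocorticoid response element, was at 96.1 ± 13.8 CPM in WT-S and 29.9 ± 4.00 in WT-A, and at 108 ± 17.97 in TTP-S and 36.1 ± 1.31 in TTP-A. Its log2 differences were -1.69 and -1.58, with adjusted p of 4.56e-06 and 1.16e-05. Tsc22d3, which encodes the glucocorticoid-induced leucine zipper, had differences of -0.84 and -0.86, with 0.000145 and 0.000158. Klf9 had -0.62 and -1.08, with 0.00168 and 5.04e-05. The list median was -0.57 in WT and -0.89 in TTP, beside 0.01 and -0.00 over all genes tested. Between genotypes none of the list was called in S or in A, while over 14 libraries 1 was, Klf9 in S, at 0.57 with an adjusted p of 0.0112. Over all 16 libraries 5 in S and 4 in A had an unadjusted p under 0.05, and DESeq2 called 4 in S and none in A. Dusp1 was thus not called where Per1, Tsc22d3 and Klf9 fell. Its 95% interval, 0.796-fold to 1.68-fold in WT and 0.858-fold to 1.82-fold in TTP, lay above the fold of Per1 in each.

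The spread within groups differed widely among the 10 genes. On the log2 scale the within-group SD was 0.66 for Fosb, 0.65 for Nr4a1, 0.57 for Egr1, 0.56 for Fos and 0.37 for Dusp1, and it was 0.29 for Atf3, 0.22 for Jun, 0.20 for Junb and 0.17 for Ier2. Among 9493 tested genes with a mean of at least 10 CPM, the median SD was 0.121 and the upper quartile was 0.172. For Nr4a1, Egr1 and Fos, at least 99.1% of these genes had a smaller SD, and for Ier3 54.2% did. Fosb, with a mean of 6.24 CPM, lay below that level and is not ranked.

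Fos, Fosb, Egr1, Dusp1, Jun and Ier2 moved up and down together from library to library. Every pair among them passed the permutation test of Pearson r described below. Junb passed it with Fos, Fosb, Egr1 and Ier2. Nr4a1 passed it with Jun and Ier2 (adjusted p 0.0206 and 0.0342) and not with Fos, Fosb, Egr1 or Dusp1 (adjusted p 0.0621 to 0.0902). Within its group, WT-A 4 held the highest level of 8 of the 10 genes, TTP-A 2 of 7 and TTP-S 3 of 7. TTP-S 2 held the lowest level of 9, WT-S 2 of 8 and TTP-A 3 of 7. Averaged over the 10 genes, the deviation from the group mean was 0.46 in TTP-A 2, 0.44 in TTP-S 3 and 0.38 in WT-A 4 on the log2 scale, and -0.50 in TTP-S 2 and -0.30 in TTP-A 3.

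**Figure D3:**
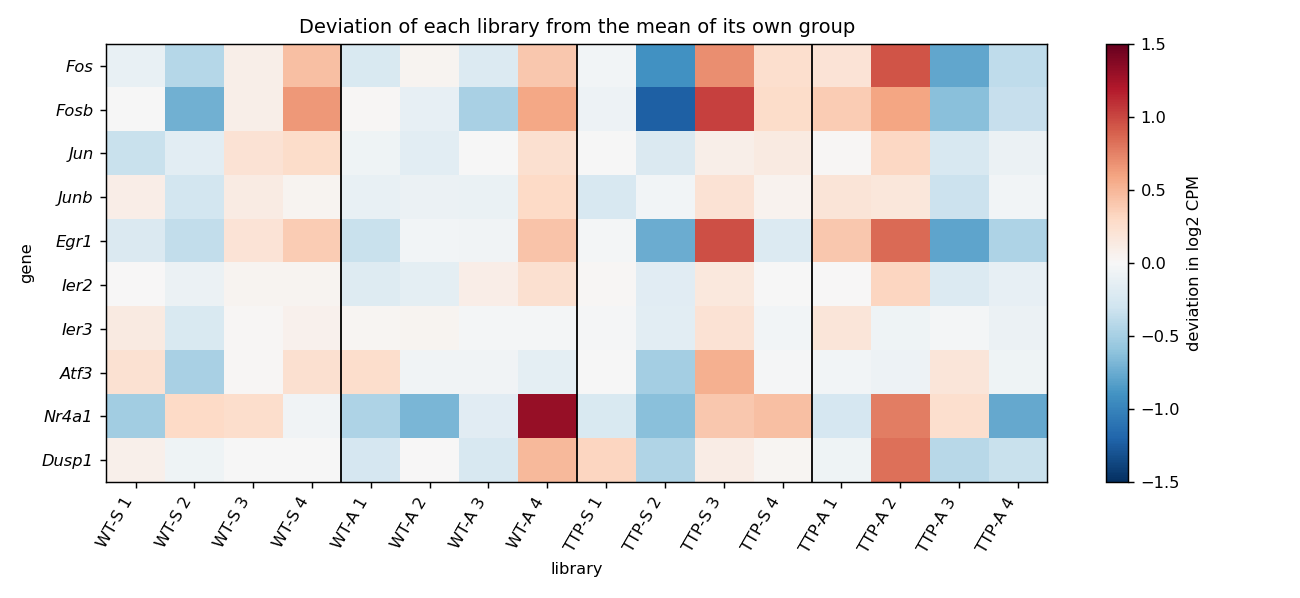
Deviation of each immediate early transcript (rows) in each library (columns) from the mean of its own group, in log2 CPM, by colour. TTP-A 2, TTP-S 3 and WT-A 4 are high for most genes and TTP-S 2 and TTP-A 3 are low for most, with Ier3 deviating least.

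Correlations of these deviations over the 16 libraries were positive for 44 of the 45 pairs of genes, with a median Pearson r of 0.639. In 100000 permutations of libraries within groups, 22 pairs had an adjusted p under 0.05 over the 45 pairs, all of them positive. For Fos and Egr1, r was 0.943 and Spearman's rho 0.926 (permutation p 6e-05 and 1e-04, adjusted 9e-04 and 0.0015). Without TTP-A 2 and TTP-S 2, the libraries farthest from the median, r was 0.923, and without WT-A replicates 3 and 4 it was 0.944. For Fos and Fosb, r was 0.931 and rho 0.938 (permutation p 2e-05 and 4e-05, adjusted 0.000675 and 0.0015), and r was 0.939 without TTP-A 2 and TTP-S 2.

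Ier3 and Atf3 had their highest correlation with each other, with r of 0.807 and rho of 0.776 (permutation p 0.00438 and 0.00262, adjusted 0.0161 and 0.00982), and r of 0.618 without TTP-S 3 and WT-S 2. Next was Fosb, with r of 0.664 for Ier3 and 0.639 for Atf3 (rho 0.532 and 0.438, permutation p for r 0.0262 and 0.0448, adjusted 0.0512 and 0.0746), which became 0.456 and 0.265 without TTP-S 2 and TTP-S 3. At the low end was Nr4a1, for which r was -0.09 with Ier3 and 0.02 with Atf3 (permutation p 0.724 and 0.947, adjusted 0.776 and 0.947, with rho of -0.147 and -0.00588). Without 2 libraries these became -0.15 and -0.35. Nr4a1 and Dusp1 had r of 0.624, which was 0.272 without WT-A 4 and TTP-A 2 (rho 0.553, permutation p 0.0345 and 0.0609, adjusted 0.0621 and 0.11), so that relation rested on those libraries. Libraries share depth and scaling across genes, and the part of sample handling in these deviations was not tested.

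Outside the 10 genes, 13884 genes with a mean of at least 1 CPM were ranked by Pearson r, over the 16 libraries, with the mean standardised level of the 10. The highest were Ccdc106 (0.833), Tmem55b (0.823), Zfp516 (0.814), Btg2 (0.81) and Actb (0.803). Btg2, an antiproliferative immediate early gene, had means of 104 and 130 CPM in WT-S and WT-A, and of 102 and 119 CPM for TTP-S and TTP-A. Among the 10 themselves, r with this mean, which includes them, ran from 0.622 for Jun to 0.868 for Egr1. These correlations are descriptions over libraries that also differ in group.

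Across all 10 genes, the difference between WT-A and WT-S was positive for 10, with a median of 0.26, beside 0.01 over all genes tested. This included Fos at 0.01, whose sign changed with DESeq2 size factors. Without WT-A replicates 3 and 4, 7 were positive, with a median of 0.12. Between TTP-A and TTP-S, 8 were positive, with a median of 0.34 over 16 and over 14 libraries, and Jun and Ier2 were below 0, Ier2 by less than 0.01 with a sign that changed with a filter at 1 CPM. Between TTP-S and WT-S 3 were positive, with a median of -0.12, Egr1 among them at 0.01. Between TTP-A and WT-A 4 were positive, with a median of -0.13, and over 14 libraries 5 were, with 0.03. Groups did not overlap for 3, 2, 1 and 3 of the 10 in these comparisons, beside 17.7%, 13.7%, 6.74% and 12.2% of all genes tested.

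Other immediate early regulators, a list of 19 that were all tested, held 6 called higher and none lower between WT-A and WT-S. The background is 18.5% of all genes tested in either direction. Over 14 libraries 4 were higher, with a background of 10%. Ier5, Ier5l, Egr2 and Klf10 had the lowest adjusted p. Egr2, a relative of Egr1, was at 0.575 ± 0.212 CPM in WT-S and 1.84 ± 0.559 in WT-A, a difference of 1.66 (SE 0.31, adjusted p 0.00357) that was 1.39 (adjusted p 0.0191) over 14 libraries. Ier5 was at 13.96 ± 0.930 and 20.95 ± 0.439 CPM, a difference of 0.58 (SE 0.08, adjusted p 0.000536). Between TTP-A and TTP-S, where the background is 2.57%, 1 of the 19 was called, Egr2. It was at 0.569 ± 0.0981 and 1.6 ± 0.592 CPM, a difference of 1.49 (SE 0.31, adjusted p 0.0225). That call was lost without TTP-A 1 or TTP-S 2, 3 or 4, with adjusted p of up to 0.0956, while the WT call held without each library in turn. Without WT-A replicates 3 and 4, 2 of the 19 were called between TTP-A and TTP-S, with a background of 5.86%. The median of the list was 0.22 in WT and 0.16 in TTP.

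Between genotypes, none of these 19 was called in S, with a background of 0.0325% of all genes tested. There 5 had an unadjusted p under 0.05 and DESeq2 called none. In A 2 were lower in TTP, Maff, a small MAF factor, by -0.48 (SE 0.12, adjusted p 0.0343) and Ier5l by -0.47 (SE 0.13, adjusted p 0.0479). The background in A is 5.15% of all genes tested in either direction. Maff was at 11.9 ± 0.723 CPM in WT-A and 8.50 ± 1.18 in TTP-A. Neither was called without WT-A replicates 3 and 4 (adjusted p 0.101 and 0.179). Leaving out 1 library, the Maff call was lost in 5 of 8 fits and the Ier5l call in 7 of 8, with adjusted p of up to 0.104 without TTP-A 3 and 0.122 without TTP-A 4.

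Among 28 further effectors and feedback genes, all tested, 3 were called higher and 1 lower between WT-A and WT-S, and 4 higher and none lower between TTP-A and TTP-S. The background shares are 18.5% and 2.57% of all genes tested, so the 4 of 28 in WT lay below the background. Over 14 libraries the counts were 2 and 1, and 4 and 2. Zfp36l2, a paralog of Zfp36 that also binds AU-rich elements, was higher in A in both genotypes, at 141 ± 14.1 and 195 ± 10.02 CPM in WT and 122 ± 3.83 and 166 ± 18.3 CPM in TTP. Its differences were 0.46 (SE 0.08, adjusted p 0.00229) and 0.44 (SE 0.08, adjusted p 0.00977), and both held without each library in turn. In WT, Dusp10 and Gadd45a, a phosphatase of stress kinases and a growth arrest gene, rose by 0.71 and 0.70, and Dusp6, a dual-specificity phosphatase, fell by 0.42 on the log2 scale. In TTP, Spry4, Plk2 and Cyr61 rose by 0.66, 0.53 and 1.07. The Dusp10 call was lost over 14 libraries, at 0.58 with an adjusted p of 0.0646. The Gadd45a call was lost without WT-S 2, that of Dusp6 in 3 of 8 fits, and those of Spry4, Plk2 and Cyr61 in 2, 4 and 5 of 8, with adjusted p of up to 0.127.

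Ptgs2, which encodes the inducible cyclooxygenase COX-2 and whose transcript is a known AU-rich one, was the 1 gene of these 28 called between genotypes over 16 libraries. It was higher in TTP-A than in WT-A, at 5.91 ± 0.788 and 3.05 ± 0.649 CPM, a difference of 0.95 (SE 0.21, adjusted p 0.0263). The background there is 5.15% of all genes tested, so 1 call among 28 genes lay below the background. Without WT-A replicates 3 and 4 the difference was 0.82 with an adjusted p of 0.104, and 1 other gene of the list, Mcl1, was called, lower in TTP-A at -0.32 (adjusted p 0.0152), against -0.07 (adjusted p 0.722) over 16 libraries. The background over 14 libraries is 2.06%, and Mcl1 was named after its values were seen. DESeq2 called 2 of the 28 in A. The Ptgs2 call was lost without TTP-A 2, 3 or 4 or WT-A 3, with adjusted p of up to 0.0887. None of the 28 was called between TTP-S and WT-S, with a background of 0.0325%. There 4 had an unadjusted p under 0.05 and DESeq2 called none.

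Kinases and transcription factors upstream of these genes, a list of 20, held 2 called higher between WT-A and WT-S, Elk3 by 0.29 and Mapk3 by 0.19 on the log2 scale. The Mapk3 call was lost without WT-A 3 or WT-S 2, with adjusted p of up to 0.106, and over 14 libraries, with 0.167. Over 14 libraries 1 was higher and none lower between WT-A and WT-S. The backgrounds are 18.5% of all genes tested over 16 libraries and 10% over 14, in either direction. The other pairwise comparisons called none over 16 libraries, with 1, 0 and 7 genes at an unadjusted p under 0.05 and 1, 0 and 5 called by DESeq2 for TTP-A against TTP-S, TTP-S against WT-S and TTP-A against WT-A. Their backgrounds are 2.57%, 0.0325% and 5.15%. Over 14 libraries Elk3 was called between TTP-A and TTP-S, at 0.26 (adjusted p 0.0319), with a background of 5.86%. Among 10 heat shock genes, which respond to stress and handling, 3 were higher and 1 lower between WT-A and WT-S, and 2 and none over 14 libraries, with backgrounds of 18.5% and 10% of all genes tested. Between TTP-A and TTP-S 1 was higher, Hspa1a, by 0.54 (SE 0.12, adjusted p 0.0294), a call lost in 5 of 8 fits, with adjusted p of up to 0.123 without TTP-A 1. Over 14 libraries 2 were higher there, Hspa1a and Hspa1b. The backgrounds for TTP are 2.57% over 16 libraries and 5.86% over 14. Hspa1a and Hspa1b are near-identical copies, so their counts are uncertain. Atf3 is also a target of the integrated stress response, and of 7 other tested genes of that response none was called higher and 1, Asns, lower between WT-A and WT-S. Asns fell by 0.47 on the log2 scale (adjusted p 0.00714). In that comparison 6 of the 7 were positive, with a median of 0.24, and 5 had an unadjusted p under 0.05. None of the 7 was called between TTP-A and TTP-S, where 2 had an unadjusted p under 0.05 and DESeq2 called none.

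Because tristetraprolin acts through AU-rich elements, genotype differences were set beside the pentamer counts given above. Ier3, with 5 pentamers, was the lowest in both comparisons relative to its error, at -0.50 in S and -0.38 in A. Fos, Jun and Dusp1, with 4 each, were at 0.07, 0.22 and -0.13 in S, and at 0.33, -0.25 and -0.02 in A. Atf3 and Nr4a1, with 3 each, were at -0.63 and -0.78 in S and at -0.35 and 0.01 in A. Junb and Egr1, with 2 each, were at -0.10 and 0.01 in S and at -0.35 and 0.27 in A. Fosb with 1 was at -0.61 in S and 0.45 in A, and Ier2 with none was at -0.02 and -0.24. Apart from Ier3 in A, none of these differences was called, and the S and A comparisons gave different orders.

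**Figure D4:**
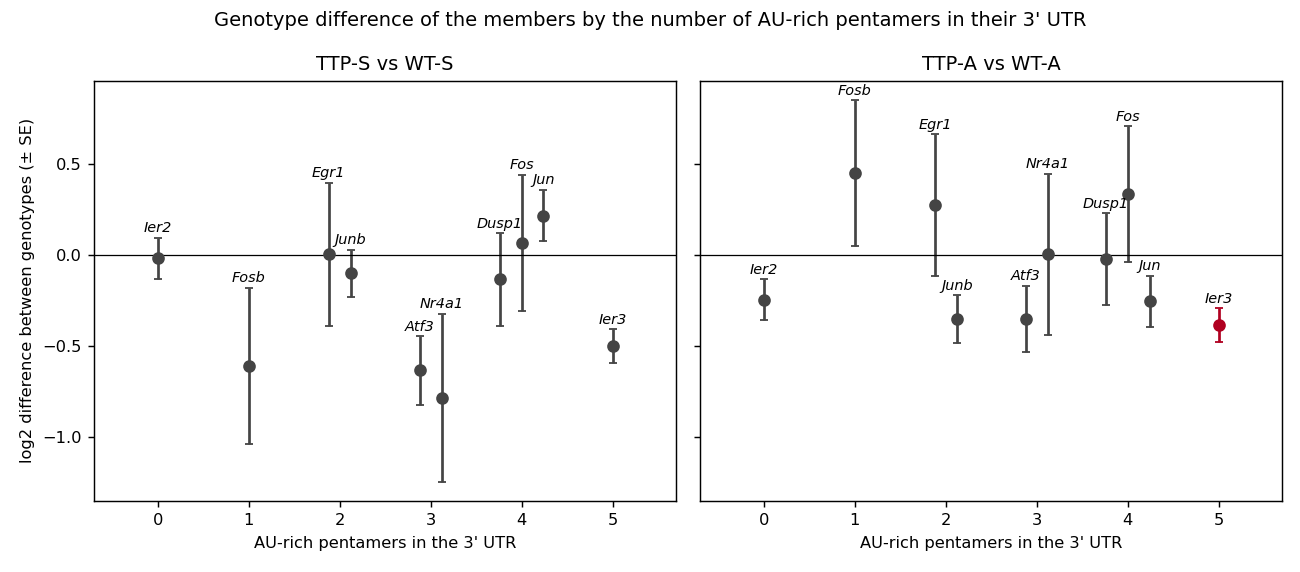
Genotype difference of each immediate early transcript (vertical axis, log2, bars of ± SE) against the number of AU-rich pentamers in its 3′ UTR (horizontal axis, points with equal counts set side by side), for S and for A, red where the adjusted p is under 0.05. Ier3, with 5 pentamers, lies below 0 in both panels, and the genes with 2 to 4 pentamers lie on both sides of 0 in each panel.

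Over all tested genes with an annotated 3′ UTR, the median difference between TTP-S and WT-S was near 0 whatever the count. It was 0.00193 for 4533 genes without ATTTA, 0.000684 for 5376 genes with 3 or more, and -0.0071 for 1131 genes with the nonamer. Between TTP-A and WT-A the medians were -0.0981, 0.128 and 0.0704. Without WT-A replicates 3 and 4, the libraries that followed GC content, these were -0.0206, 0.0200 and 0.0136.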

How the data were processed

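The authors deposited 1 table of whole-number read counts per gene symbol, with no column left without a sample. STAR 2.7.0f, featureCounts, Subread 1.6.4, DESeq2 and the build mm10 are named, with no role, in the submitters' processing notes. The annotation, strandedness and filters are not given in the sources used here, so overlapping and antisense genes could share reads. RNA was extracted in TRIzol and made into Illumina TruSeq libraries, per the labels' protocols. Groups and replicate numbers came from the sample titles.

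Deposited counts were fitted as they stood with edgeR 4.0.16 in R 4.3.3, using filterByExpr, TMM scaling and glmQLFit (quasi-likelihood, robust) with group means over all 16 libraries. Benjamini-Hochberg adjustment ran over all 15385 genes tested. SE is implied by the difference and its test statistic, and log2 CPM used a prior count of 2. Alternatives were DESeq2 1.42.0 and its size factors, other filters, a replicate block, fits of only the groups compared, omission of each library and of WT-A replicates 3 and 4, and, added after seeing the data, a fit without robust estimation. The steps were tested on simulated data. Library pairs of 1 group differed by a chi-square of 4.69 to 89.5 per degree of freedom, so none was counted as a duplicate.

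The genes, the related lists and the markers were chosen with earlier results of these data known. All 10 genes and Zfp36 are named, and from other lists up to 4 called genes with the lowest adjusted p in a comparison. Klf9, Per1 and Tsc22d3 fall under that rule, and 1 gene of the upstream list is not reported here. Gene models came from GENCODE M21 on GRCm38, and 97.8% of symbols had a length. Transcript GC content was known for 98.9% of tested genes.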

Additional observations from a re-analysis of the deposited data

Results flagged for a closer look

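In 3 of the 40 sets of 4 libraries, 1 library stood farther from the nearest other than Dixon's 95% limit of 0.829 of the range allows. Chance gives about 1 such set in 20, or 2 of 40. Junb was at 183 CPM in WT-A 4 and at 137 to 140 CPM in the other WT-A libraries. Nr4a1 was at 59.8 CPM in WT-A 4 and at 14.9 to 21.4 CPM in the others. WT-A 4 was also 1 of the 2 libraries whose genes followed GC content. Atf3 was at 30.4 CPM in TTP-A 3 and at 25.4 to 26.1 CPM in the other TTP-A libraries, although TTP-A 3 was the lowest of its group for 7 of the 10 genes.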

How the results depend on the processing

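At these depths Fosb and Egr2 rested on few counts. With 4 libraries a group, the wide spread of Fos, Egr1, Nr4a1 and Dusp1 gave wide intervals on their differences. Comparisons are listed as WT-A against WT-S, TTP-A against TTP-S, TTP-S against WT-S, TTP-A against WT-A, then the interaction. The fit over all libraries called 2842, 395, 5, 793 and 7 genes and 1, 1, 0, 1 and 0 of the 10 immediate early genes. Over 14 libraries, without WT-A replicates 3 and 4, it called 1566, 914, 65, 321 and 65 genes and 0, 2, 1 and 0 of the 10 in the pairwise comparisons. Fitting only the groups compared called 668, 1088, 60 and 4 genes and 0, 2, 0 and 0 of the 10. DESeq2 called 863, 100, 1636 and 262 genes in the last 4 comparisons, and 3 of the 10 (Atf3, Ier3 and Fosb) between TTP-A and TTP-S and 1 (Ier3) between TTP-S and WT-S. Between TTP-S and WT-S, DESeq2 size factors called 10 genes, no filter 9, and a filter at 1 CPM in 4 libraries 10. The fit without robust estimation moved no count past 1.5 times and no call of the 10. The cause of these shifts was not tested.

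Leaving out 1 library at a time, the genes called ranged from 1246 to 4866, 64 to 925, 1 to 13, 88 to 3120 and 2 to 250, and the number of the 10 called from 0 to 1, 0 to 2, 0 to 1 and 0 to 1, with none in the interaction.

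Sign changes among the 10 were all in differences that were not called. For WT-A against WT-S, Fos was -0.000842 with DESeq2 size factors, -0.000832 with DESeq2 and -0.109 over 14 libraries, where Egr1 was -0.00189 and Nr4a1 -0.443. Dusp1 between TTP-A and WT-A was 0.129 over 14 libraries. Ier2 between TTP-A and TTP-S was 0.000914 with the 1 CPM filter and 0.00106 with only the groups compared. With 1 library left out, Fos ranged from -0.147 to 0.18, -0.134 to 0.538, -0.198 to 0.293 and -0.0774 to 0.547 in the 4 pairwise comparisons. Nr4a1 ranged from -0.295 to 0.576 for WT-A against WT-S. For TTP-A against TTP-S, Junb ranged from -0.00138 to 0.17, Ier2 from -0.118 to 0.0646 and Dusp1 from -0.0392 to 0.46. For TTP-S against WT-S, Egr1 ranged from -0.426 to 0.211 and Ier2 from -0.0703 to 0.0369. For TTP-A against WT-A, Egr1 ranged from -0.0689 to 0.488, Nr4a1 from -0.309 to 0.664 and Dusp1 from -0.388 to 0.168.

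Replicate numbers are shared between groups in the labels, but the libraries share only a number. Deviations of same-numbered libraries correlated between -0.423 and 0.331 over 16 pairs, 4 of them above 0.1, and in 6 of 32 cases a library correlated best with its own number. A replicate block called 8 genes between TTP-S and WT-S, changed no call of the 10, and gave Ier2 0.00213 between TTP-A and TTP-S and Egr1 -0.0124 between TTP-S and WT-S.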
